A study of Mus musculus with 16 samples.

Results

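The replication-dependent histone genes encode the linker histone H1 and the core histones H2A, H2B, H3 and H4 that package newly copied DNA. They were taken as the protein-coding mouse genes whose symbol starts with Hist1h to Hist4h, H2ac, H2bc, H3c or H4c, or is one of H1f1 to H1f5. The rule found 62 of 21887 protein-coding genes, namely 5 H1, 17 H2A, 16 H2B, 12 H3 and 12 H4 genes, in 3 clusters. The proximal cluster of chromosome 13 (chr13:21715711-22043658, mm10) held 22 of them in 328 kb and the distal cluster (chr13:23531044-23934913) held 30 in 404 kb. The cluster on chromosome 3 (chr3:96219885-96270192) held 10 genes in 50.3 kb. A further 5 genes carry an older histone cluster symbol only (H2bu2, H2aw, H4bc24, H1f6 and H4f16) and are not counted among the 62.

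H3K4me3 and H3K27me3 were profiled in activated (ASC) and in quiescent (QSC) muscle stem cells of C57BL/6 mice, with skeletal muscle as the source. Each mark in each state had 2 immunoprecipitated replicates, each with an input, which gives 16 samples. ChIPmentation was used, in which a transposase adds sequencing adapters to chromatin that is still bound by the antibody. No genetic change or drug is named for either state. The isolation and activation of the cells, the age of the mice and the origin of the replicates (the same or separate animals) are not given in the sources read.

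Histone proteins are needed in bulk when DNA is replicated, and in dividing animal cells most transcription of these genes falls in S phase. Their genes have no introns, and their mRNAs end in a stem-loop bound by SLBP in place of a poly(A) tail. NPAT, a substrate of the cyclin E kinase, gathers at the clusters in nuclear bodies and activates them. Promoter elements differ by class: the octamer element of H2B genes is bound by OCT1 (gene Pou2f1), CCAAT boxes are bound by NF-Y, and H1 genes carry an AC-rich box. Quiescent muscle stem cells are outside the cell cycle and re-enter it on activation. H3K4me3 marks promoters that are active or ready to be used, and H3K27me3 is the repressive mark of the Polycomb complexes.

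The promoter sequences that the results below turn on are shown here as the 160 bases before the annotated start, 5′ to 3′ on the strand of the gene (RefSeq, GRCm38.p6, whose coordinates are those of mm10). Capitals mark the CCAAT box, the TATA box as TATAAA, the octamer element as ATTTGCAT and the H1 AC box as AAACACA, each searched on both strands. H1f4 (chr13:23622559-23622718, minus strand) and H1f2 (chr13:23738647-23738806, plus strand) stand for the H1 genes, which were called in both states. H2ac8 (chr13:23571221-23571380, minus strand) and H2ac11 (chr13:22042950-22043109, minus strand) each face an H2B gene across a short shared promoter. H3c4 (chr13:23575603-23575762, plus strand) and H4c12 (chr13:21750554-21750713, minus strand) were called in ASC only. H4c11 (chr13:21734874-21735033, plus strand) resembles H4c12 in sequence but was called in both states. H2ac4 (chr13:23750928-23751087, plus strand), H4c17 (chr13:21811586-21811745, plus strand) and H4c18 (chr13:21832198-21832357, minus strand) were called in neither.
H1f4: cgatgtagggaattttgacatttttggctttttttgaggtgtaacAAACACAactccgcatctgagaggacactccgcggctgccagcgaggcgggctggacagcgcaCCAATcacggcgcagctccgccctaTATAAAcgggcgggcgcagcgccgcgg
H1f2: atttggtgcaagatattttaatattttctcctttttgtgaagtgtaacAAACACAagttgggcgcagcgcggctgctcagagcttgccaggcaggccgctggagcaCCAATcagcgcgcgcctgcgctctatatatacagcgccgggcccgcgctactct
H2ac8: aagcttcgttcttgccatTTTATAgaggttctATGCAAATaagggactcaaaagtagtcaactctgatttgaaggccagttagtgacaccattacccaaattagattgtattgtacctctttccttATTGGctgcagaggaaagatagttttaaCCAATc
H2ac11: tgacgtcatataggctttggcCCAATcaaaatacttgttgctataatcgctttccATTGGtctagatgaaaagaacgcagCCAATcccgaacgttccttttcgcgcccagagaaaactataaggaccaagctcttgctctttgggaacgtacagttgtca
H3c4: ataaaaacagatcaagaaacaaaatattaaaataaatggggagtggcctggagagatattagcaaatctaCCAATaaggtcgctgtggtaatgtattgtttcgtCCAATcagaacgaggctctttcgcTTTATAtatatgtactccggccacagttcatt
H4c12: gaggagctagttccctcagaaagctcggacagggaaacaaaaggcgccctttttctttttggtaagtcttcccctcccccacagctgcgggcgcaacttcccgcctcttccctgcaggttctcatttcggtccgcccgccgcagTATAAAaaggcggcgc
H4c11: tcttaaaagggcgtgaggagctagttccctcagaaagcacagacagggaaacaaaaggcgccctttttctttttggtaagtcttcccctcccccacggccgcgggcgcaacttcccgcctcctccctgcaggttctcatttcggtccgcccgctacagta
H2ac4: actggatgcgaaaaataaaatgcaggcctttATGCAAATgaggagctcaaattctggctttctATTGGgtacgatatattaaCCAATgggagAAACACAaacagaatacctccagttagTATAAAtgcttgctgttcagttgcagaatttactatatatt
H4c17: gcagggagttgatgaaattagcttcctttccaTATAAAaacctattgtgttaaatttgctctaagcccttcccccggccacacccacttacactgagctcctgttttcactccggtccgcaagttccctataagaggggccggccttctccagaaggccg
H4c18: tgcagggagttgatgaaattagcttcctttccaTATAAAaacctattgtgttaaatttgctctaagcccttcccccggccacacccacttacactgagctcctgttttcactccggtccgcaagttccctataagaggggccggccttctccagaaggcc

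The longest run shared by H4c17 and H4c18 was 159 bases, so a single read lying wholly within it fits both promoters. H4c12 and H4c11 shared a run of 55 bases, and H1f4 and H1f2 a run of 15 bases that spans the AC box. Of the 62 genes, 57 had a promoter in the RefSeq table, H2bc6 with 2 entries, which gives 58 promoters. In the 200 bases before the start, CCAAT stood in 48 of the 58 (82.8%), against 29.3% of all 32851 promoters of the table. It was present in 5 of 5 H1, 17 of 17 H2A, 15 of 15 H2B, 8 of 10 H3 and 3 of 11 H4 promoters. The octamer stood in 13 (22.4%, against 1.38% of all promoters), 6 of them H2A and 7 H2B promoters, and in no promoter of the other classes. TATAAA was found in 25 (43.1%, against 9.96%). AAACACA was found in 7 (12.1%, against 4.8%), among them 4 of 5 H1 promoters. H2A and H2B genes that face each other share these bases, so a single match can count for both genes. A match in letters is no evidence of binding.

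The data were 8 lists of peaks called by the authors with MACS2, in which every mark and state has 1 list of narrow and 1 of broad peaks. Both replicates of a group point to the same lists, so there is 1 list per state, no difference between ASC and QSC has a replicate check, and no test was possible. Fold enrichment over background, given below as a fold, and the -log10 q are the authors' own values and are compared within a list only. Read depth is unknown from these files, and the share of cells that carry a mark cannot be told apart from the amount of mark in each cell. The ASC H3K4me3 narrow list held 15869 peaks over 35.4 Mb and the QSC list 14354 peaks over 24.4 Mb. All 7 muscle stem cell markers checked, Pax7 and Myod1 among them, had an H3K4me3 peak in both states. Of the markers of other cell types, 3 of 5 endothelial, 1 of 5 immune, 2 of 4 fibro-adipogenic and 1 of 4 smooth muscle markers had one in ASC, against 2, 0, 0 and 3 in QSC. Their part in the results below was not tested.

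Most replication-dependent histone genes carried H3K4me3 in both states, and 8 gained a narrow-peak call in ASC while none lost one. A gene was called when a narrow peak overlapped a window of 1 kb either side of an end of its gene record. In ASC 51 of the 62 genes were called, against a background of 55.7% of all protein-coding genes, and in QSC 43 were called, against 53%. All 43 were also called in ASC (52.2% of all genes were called in both states). The 8 called in ASC only were 12.9% of the 62 genes, against 3.54% of all protein-coding genes, and the QSC-only count was 0, against 0.777%. The remaining 11 genes were called in neither state. The counts were recomputed with lists of matched length, keeping the best p-values. With equal numbers of peaks, 47 histone genes were called in ASC and 43 in QSC, with 8 in ASC only and 4 in QSC only, against 565 and 320 of all genes. With the ASC list cut to the bases covered in QSC, 3 histone genes were called in ASC and 43 in QSC, with 0 in ASC only and 40 in QSC only. Under that setting 103 of all genes were called in ASC only and 3504 in QSC only. With the broad lists the same 56 histone genes were called in each state, against 62.4% of all genes in ASC and 71.1% in QSC.

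The class with the most ASC-only calls was H3. By class they were 4 of 12 H3 genes (H3c4, H3c11, H3c14 and H3c15), 2 of 12 H4 genes (H4c9 and H4c12), 1 of 17 H2A genes (H2ac7), 1 of 16 H2B genes (H2bc7) and 0 of 5 H1 genes. By place, 3 lay in the proximal and 3 in the distal cluster of chromosome 13 and 2 in the cluster on chromosome 3. In ASC the strongest peak at H3c11 had a fold of 15.9 and that at H4c12 a fold of 13.5. H3c15 had 10.1 and H3c14 had 8.49. H2bc7 and H2ac7 had 9.39, from a peak (chr13:23570376-23574024) that covers H2ac8 and H2bc8, which were called in both states. That peak overlapped part of the H2bc7 record and ended before the H2ac7 record, reaching only its window. Another ASC peak overlapped the H2ac7 record itself. The lowest of the 8 were H3c4 with 7.77 and H4c9 with 7.59, and the peak of H4c9 was also the strongest at H2ac11 and H2bc11. At H3c11 the strongest ASC peak (chr13:21778316-21782385) was the one that covers H1f5, the H1 gene next to it, which was marked in both states. It ended before the H3c11 record, which begins at base 21782915, and reached only the window of that gene. A second ASC peak overlapped the H3c11 record itself.

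All 8 had an H3K4me3 peak in the QSC broad list, with folds between 2.05 at H3c15 and 3.50 at H3c11. Their -log10 q values lay between 0.69 and 4.85. The medians of that list were a fold of 1.59 and a -log10 q of 0. Except at H3c15, fold and -log10 q equalled those of a neighbour called in both states, such as H1f5 for H3c11. These values are therefore not particular to the 8 genes. The broad lists differ in length, with 29297 peaks in ASC and 184538 in QSC. Peak names carry a number that rises along the chromosomes in both lists. Of the numbers up to 25580 in the ASC narrow list 9711 were absent, and of those up to 22722 in the QSC list 8368 were absent. At all 8 genes, between 1 and 3 numbers were absent between the nearest QSC narrow peaks on either side. The median of these intervals was 9550 bp. Among all ASC-only genes with a flanking peak on both sides, numbers were absent in 618 of 774 intervals (79.8%), whose median length of 214784 bp was far greater. What the absent numbers stood for is unknown from the sources used here. Their part in the ASC-only calls was not tested.

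Peaks at histone genes were low in each list compared with peaks at other genes. The median fold of the strongest peak at a called histone gene was 9.03 in ASC (range 3.97 to 22.4) and 6.53 in QSC (3.15 to 14.8). Over all called protein-coding genes the medians were 22.0 in ASC and 12.1 in QSC. Ranked among all peaks of the list, the histone genes had a median percentile of 29.3 in ASC and 25.1 in QSC, and all called genes 64.8 and 62.1. Only 3 histone genes exceeded the median peak of the ASC list (16.3), and they share a single peak. In the QSC list 9 exceeded its median of 10.4. The peaks at histone genes were also short, with a median of 1327 bp in ASC and 1175 bp in QSC, against 2028 bp and 1512.5 bp over all peaks of each list. Their median -log10 q was 22.2 in ASC and 12.5 in QSC, against list medians of 79.6 and 29.9.

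**Figure D1:**
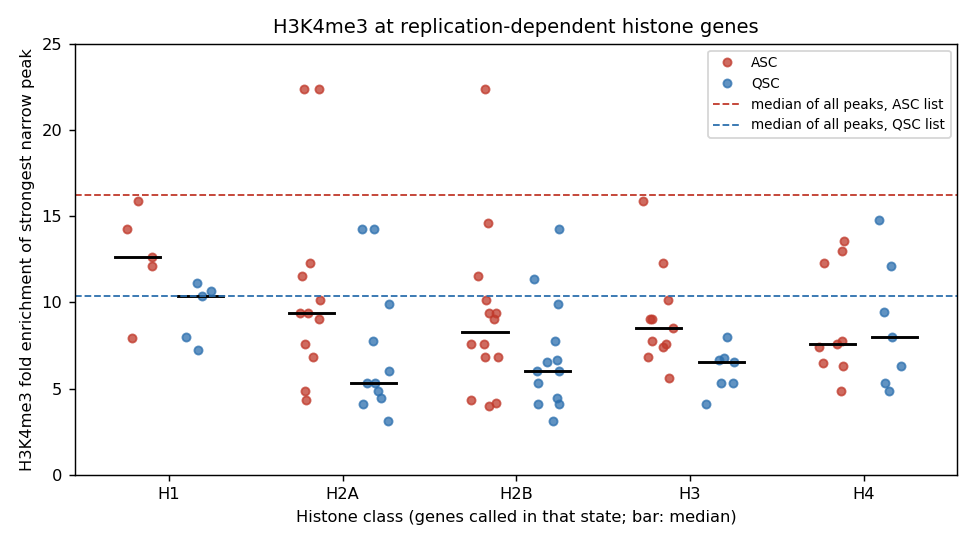
Fold enrichment (linear axis) of the strongest H3K4me3 narrow peak at each called histone gene, by histone class, with ASC in red to the left of QSC in blue; black bars are class medians and dashed lines the medians of all peaks of each list. The H1 genes had the highest class medians (12.6 in ASC, 10.4 in QSC), and in ASC only the 3 genes sharing the peak of fold 22.4 lay above the list median of 16.3; genes that share a peak share a value.

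The H1 genes, whose products bind the linker DNA between nucleosomes, were called in both states in 5 of 5 cases. H1f5 had a fold of 15.9 in ASC and 7.22 in QSC, H1f4 14.3 and 11.1, and H1f2 12.6 and 10.4. H1f3 had 12.1 in ASC and 10.6 in QSC. H1f1 was the lowest of the class in ASC, with 7.95, against 7.98 in QSC. That QSC peak (chr13:23760154-23762681) covers H4c1 and H3c1 and ended before the H1f1 record, which begins at base 23763668. The QSC call of H1f1 therefore rests on the peak of its neighbours, reached through the 1 kb window. In the ASC list all 5 were below the median peak, whereas in the QSC list H1f2, H1f3 and H1f4 stood above it.

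H2A and H2B genes, which encode the partners of the H2A-H2B dimer, were called in 12 of 17 and 14 of 16 cases in ASC, against 11 and 13 in QSC. The strongest peak of the family covered H2ac21, H2ac20 and H2bc21 on chromosome 3 and had a fold of 22.4 and a length of 3749 bp in ASC, against 14.3 and 3221 bp in QSC. H2bc6, whose record runs to the neighbourhood of H1f4, had 14.6 in ASC and 11.4 in QSC. At the low end, H2bc14 had 3.97 in ASC and 6.05 in QSC, H2bc3 had 4.15 and 4.11, and H2ac22 with H2bc22 had 4.33 and 3.15. The class medians were 9.39 for H2A and 8.31 for H2B in ASC, against 5.32 and 6.05 in QSC.

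H3 genes, which encode the histone that carries both marks studied, were called in 11 of 12 cases in ASC and 7 of 12 in QSC, with class medians of 8.49 and 6.53. The lowest H3 fold in ASC was 5.60 at H3c6, against 6.77 in QSC. H4 genes encode the partner of H3 in the central tetramer and were called in 9 of 12 cases in ASC and 7 of 12 in QSC. H4c14 on chromosome 3 had a fold of 13 in ASC and 14.8 in QSC, where it was the highest of these genes. H4c8 had 12.3 in ASC and 12.1 in QSC. H4c6 was low in both lists, with 4.88 in ASC and 4.84 in QSC. The H4 class median was 7.59 in ASC and 7.98 in QSC.

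H3K4me3 domains at histone genes were longer in ASC at 41 of the 43 genes called in both states, against 90.7% of all genes called in both. To measure them, narrow peaks no more than 1 kb apart were joined into domains, and a gene took the length of the longest domain that touched it. The median log2 ratio of length, ASC over QSC, was 1.25 (range -0.20 to 2.66), against 0.55 over all 11425 genes called in both states. Joining neighbouring peaks contributed to that figure. Without joining, the median was 0.63, against 0.54 over all genes, and with each distinct ASC domain counted once it was 0.87 over 25 domains. With the broad lists the median was 0.52, against 0.18 over all genes. With equal covered bases 3 genes, which share 1 peak, were left.

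The longest ASC domains each covered several histone genes. A single ASC peak of 7930 bp (chr13:23529876-23537805) ran over H4c8, H2ac10 and H3c8, where QSC had a domain of 1982 bp at H4c8 and another of 2076 bp at H2ac10 and H3c8. An ASC domain of 7397 bp covered H4c12, H2ac15 and H2bc15, of which QSC marked the H2A and H2B genes alone, with 1696 bp. Another of 6729 bp (chr13:23570376-23577104) joined H2ac8, H2bc8, H2bc7, H2ac7 and H3c4, and in QSC 1064 bp covered H2ac8 and H2bc8 while the other members of that group had no narrow peak. H4c4 lay in a domain of 5715 bp in ASC and of 905 bp in QSC. H2ac12 and H2bc12 had 3341 bp in ASC and 576 bp in QSC. Each state had 27 such domains, which summed to 88582 bp in ASC and 42751 bp in QSC. In ASC 16 of the 27 touched several histone genes and 13 consisted of several peaks, against 14 and 4 in QSC.

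By class, the median log2 length ratio was 1.78 for H2A, 1.53 for H2B, 0.87 for H3, 0.87 for H4 and 0.52 for H1 genes. By cluster it was 1.78 in the proximal and 1.38 in the distal cluster of chromosome 13 and 0.22 on chromosome 3. H1f2 changed little, with 2605 bp in ASC and 2477 bp in QSC, as did H3c6, with 1495 bp and 1434 bp. The domain was shorter in ASC at H4c3, with 804 bp in ASC and 925 bp in QSC, and at H2bc14, with 759 bp and 800 bp. At H2bc14 the peaks of the states did not overlap: the ASC peak (chr13:21720826-21721584) ended upstream of the gene start at base 21722044, and the QSC peak (chr13:21721669-21722468) covered the start.

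**Figure D2:**
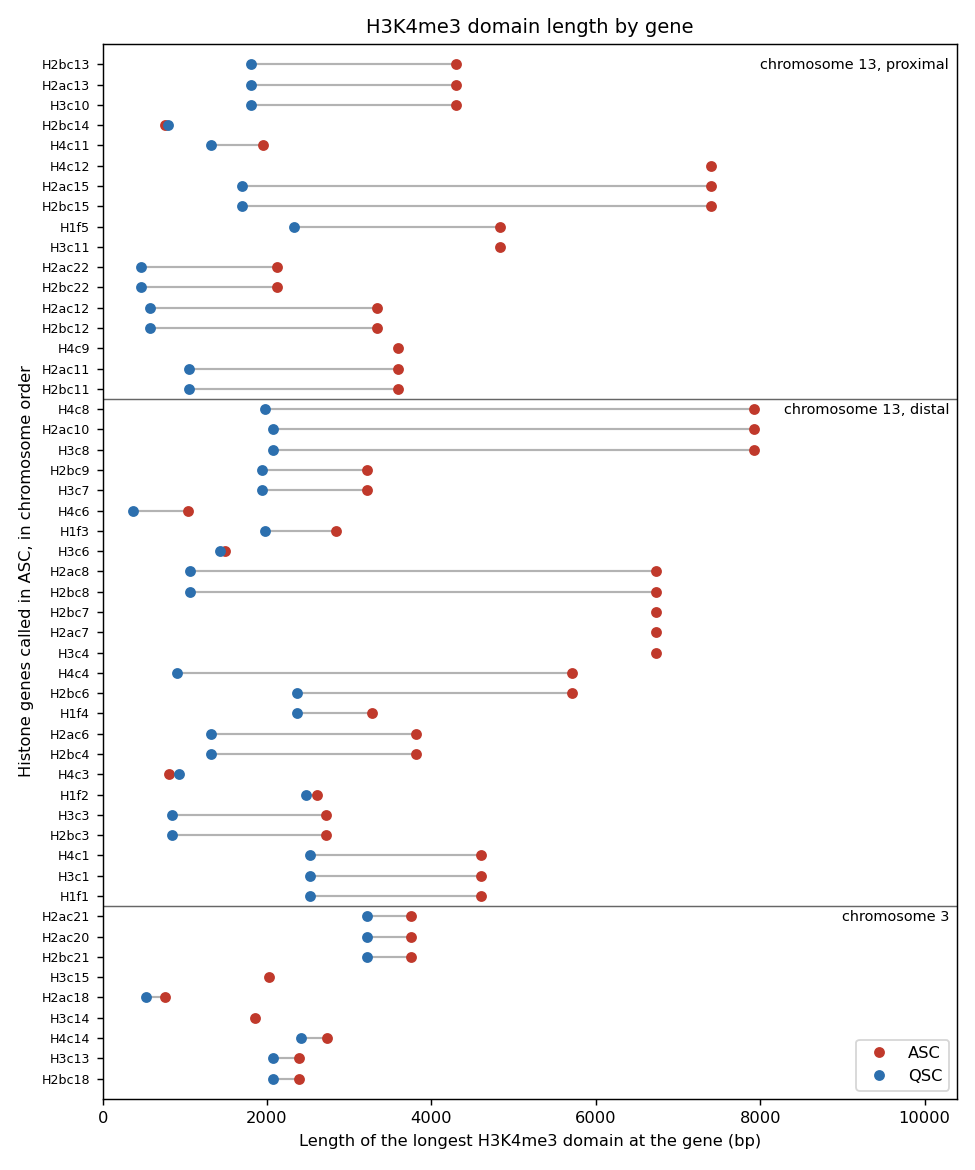
Length in bp (linear axis) of the longest H3K4me3 domain at each histone gene called in ASC, in chromosome order within 3 clusters, with ASC in red and QSC in blue joined by a grey line; a lone red point is a gene with no QSC narrow peak. Most ASC points lie to the right of their QSC points, with the widest gap in bp at H4c8 (7930 bp in ASC, 1982 bp in QSC), and the genes of chromosome 3 lie close together; neighbours with the same domain share a value.

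Core histone gene starts lay outside the narrow peaks, with a peak within 1 kb on both sides, at 9 of 41 called genes with a strand in ASC (22%) and 0 of 33 in QSC, against 3.02% and 1.57% of all called genes. A further 6 in ASC and 5 in QSC had a peak on 1 side only, and the remaining 26 and 28 starts were covered. The position of narrow peaks around the start was read for the same genes. At 200 bp upstream, 56.1% of them were covered in ASC and 78.8% in QSC, whereas over all called genes the shares were 80.8% and 76.1%. At the start itself, the shares were 63.4% in ASC and 84.8% in QSC, against 88.2% and 88.7% over all genes. At 500 bp downstream of the start the order turned, with 87.8% in ASC and 54.5% in QSC, against 92.0% and 89.4% over all genes. At 1 kb upstream, 68.3% of the core histone genes were covered in ASC and 24.2% in QSC, against 36.0% and 20.8%. The ASC and QSC shares rest on different genes, since 8 of the 41 were called in ASC only. Over the 33 core genes called in both states, 60.6% in ASC and 78.8% in QSC were covered at 200 bp upstream, and 72.7% and 84.8% at the start. Of the 5 H1 genes, 100% were covered at the start in ASC and 80% in QSC.

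**Figure D3:**
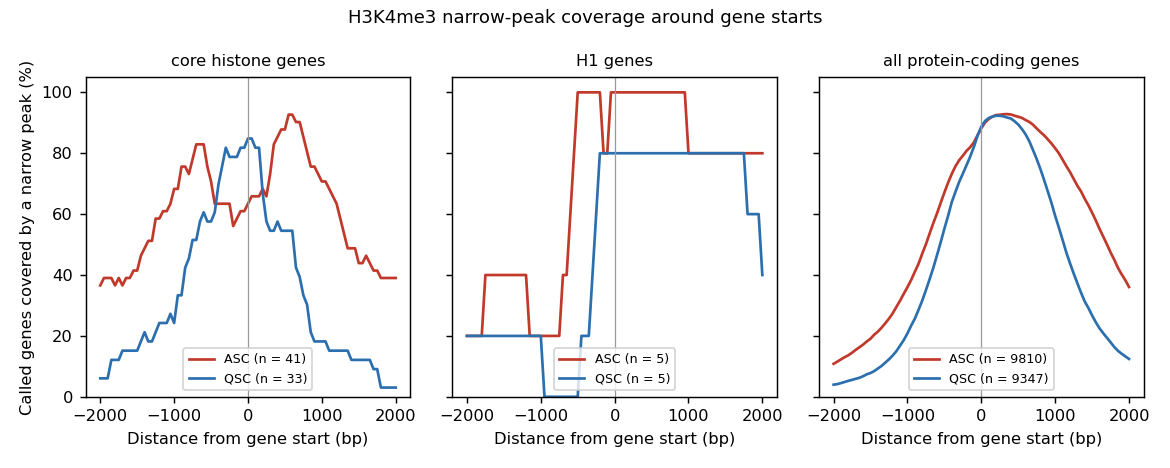
Share of called genes (percent) with an H3K4me3 narrow peak over each position from 2 kb upstream to 2 kb downstream of the start, for core histone genes, H1 genes and all protein-coding genes, with ASC in red and QSC in blue. The ASC line of the core histone genes dips to 56.1% at 200 bp upstream, where the QSC line stands at 78.8%; the dip is absent in the panel of all genes.

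Among genes called in both states with a strand, the 200 bases before the start were less than 50% covered by peaks in ASC and wholly covered in QSC at 7 of 38 histone genes (18.4%). Over all genes that pattern was found at 309 of 9219 (3.35%). The opposite, whole coverage in ASC and less than 50% in QSC, was found at 1 histone gene (2.63%) and 5.67% of all genes. Counting any difference, 10 of the 38 were less covered in ASC, 7 were more covered and 21 were equal. The 7 with the first pattern were H2ac22, H2bc22, H2ac11, H2bc11, H2ac12, H2bc14 and H4c1. Coverage in ASC was 0% at H2ac22, H2bc22, H2ac11, H2bc14 and H4c1, 11.5% at H2bc11 and 44% at H2ac12. Coverage was higher in ASC at H3c10, with 100% in ASC and 0% in QSC, at H4c4 with 92.5% and 6.5%, at H2ac18 with 92% and 23.5%, and by less at H1f1, H3c3, H2bc9 and H4c6. The genes H2ac22 and H2bc22, H2ac11 and H2bc11, and H2ac12 and H2bc12 are pairs that share a promoter, so the 7 genes are not independent.

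Among genes with a strand there were 9 such head-to-head pairs of an H2A and an H2B gene, with 163 to 280 bp between their starts. H2bc4 and H2bc21, next to H2ac6 and H2ac20, had no strand, so these neighbours could not be counted as pairs. The bases before the H2ac6 start, on the side of H2bc4, were 0% covered in both states. In ASC 7 pairs were called, and the space between the starts was wholly covered by peaks in 3 of them. In QSC 6 pairs were called, and the space was wholly covered in all 6. At H2ac22 and H2bc22, and at H2bc7 and H2ac7, ASC peaks lay over both sides and 0% of the space was covered. For H2ac11 and H2bc11 9.27% of it was covered in ASC, and for H2ac12 and H2bc12 49.7%. The promoter of H2ac11 shown above, with 3 CCAAT boxes, lay wholly outside the ASC peaks, while that of H2ac8, with the octamer, was wholly covered in both states. Whether the gaps held signal below the peak threshold, or peaks with an absent number, was not tested.

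**Figure D4:**
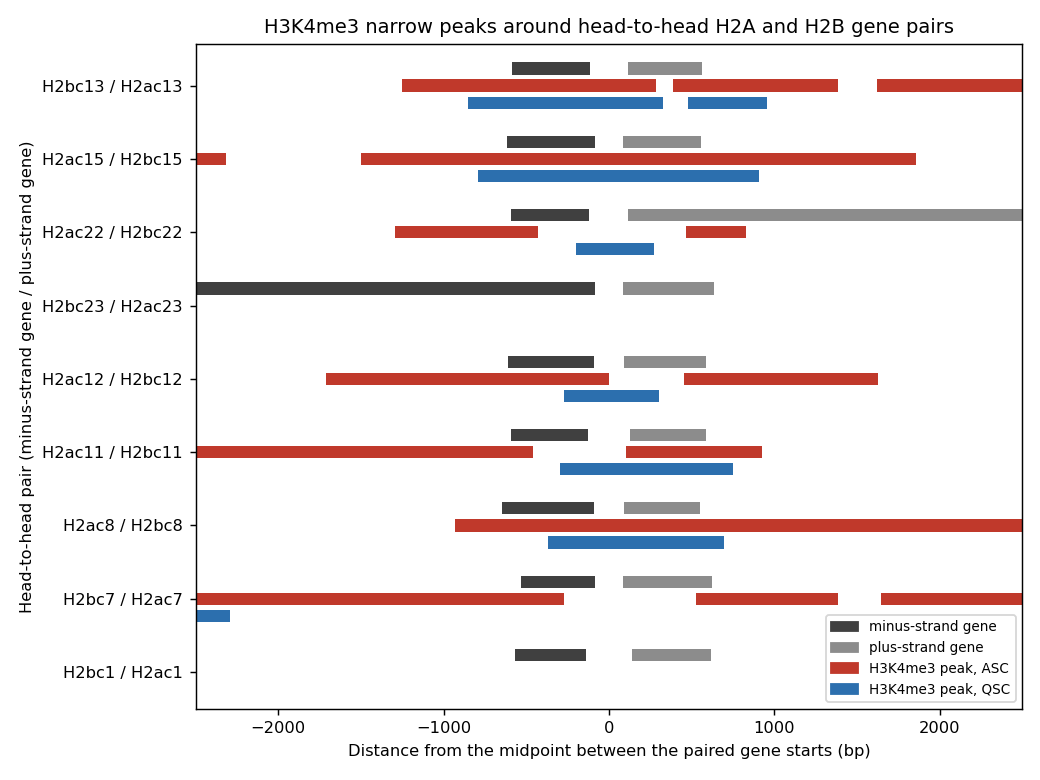
H3K4me3 narrow peaks within 2.5 kb of the midpoint between the starts of the 9 head-to-head H2A and H2B pairs, with the minus-strand and plus-strand gene records in dark and light grey, ASC peaks in red and QSC peaks in blue; the axis is in bp. In ASC the peaks of 4 of the 7 called pairs leave part or all of the space between the starts uncovered. In QSC each of the 6 called pairs has a peak over the midpoint. Only pairs with a strand for both genes are shown.

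H3K27me3 was close to absent from the histone genes themselves. For this mark a call needed 500 bp or more of a window under broad peaks. In ASC 0 of 62 genes were called, against 34.3% of all protein-coding genes, and in QSC 2 were called, against 30.5%. Both were therefore QSC only, against 3.68% of all genes, and the ASC-only count was 0, against 7.5%. They were H3c4, with 948 bp covered by a peak of fold 1.87 and a -log10 q of 0.36, and H2ac15, with 532 bp, a fold of 1.72 and a -log10 q of 0.18. Both peaks are weak, and the QSC count was 0 at a -log10 q threshold of 1.3, at a fold threshold of 3 and with windows of 500 bp. With the narrow list no histone gene was called in either state, against 15.2% of all genes in ASC and 9.38% in QSC. Below the 500 bp limit, QSC peaks covered 461 bp at H4c6 and 195 bp at H4c2. Over the whole gene record and 5 kb either side of it, H3K27me3 was present at 16 histone genes (25.8%) in ASC and 34 (54.8%) in QSC. Over all genes the shares were 62.2% and 63.9%. A longer record gives more room for a peak, and record lengths were not matched between the histone genes and all genes.

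The space between the groups of histone genes was different. H3K27me3 broad peaks covered 38.0% of the proximal cluster in ASC and 45.0% in QSC, and 19.9% and 23.0% of the distal cluster. On chromosome 3 the shares were 0% in ASC and 4.04% in QSC. In all, the H3K27me3 broad lists covered 517 Mb in ASC and 455 Mb in QSC. The share of the genome was not computed, so the cluster shares have no background value. In the proximal cluster this mark lay over the long stretch without histone genes in the middle of the span. Prss16, which encodes a thymic serine protease, and Pom121l2 lie in that stretch and were wholly covered at a gene end in both states, with peaks of fold 4.39 in ASC and 3.90 in QSC. Zfp184, a zinc finger gene, was called for H3K27me3 in ASC only, with 1248 bp covered, against 341 bp in QSC, and had H3K4me3 in both. In the distal cluster Trim38 and Slc17a2, a solute carrier gene, were called for H3K27me3 in both states. Hfe, a regulator of iron uptake, had H3K4me3 of fold 15.2 in ASC and 11.6 in QSC and no H3K27me3 call. H3K4me3 narrow peaks covered 14.9% of the proximal cluster in ASC and 5.16% in QSC, 11% and 6.21% of the distal cluster, and 24.2% and 14.2% of that on chromosome 3.

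**Figure D5:**
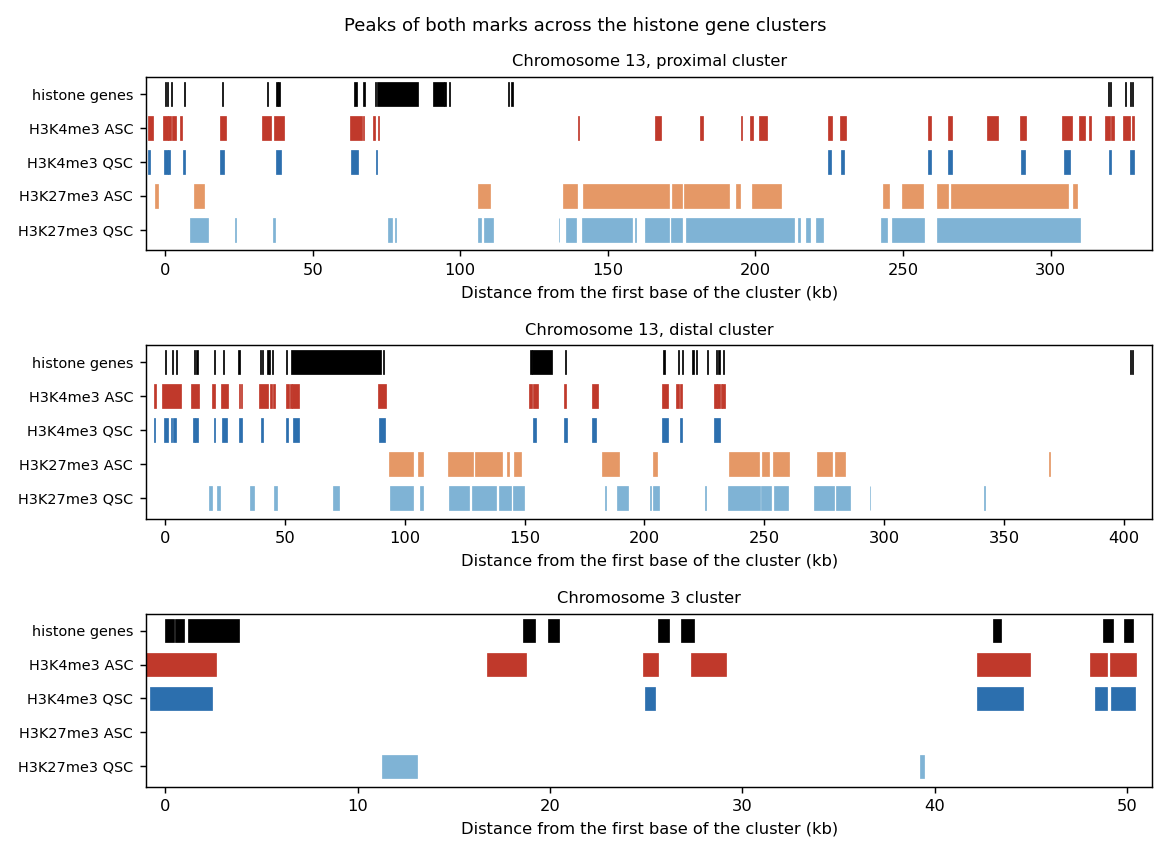
Histone gene records (black), H3K4me3 narrow peaks (ASC red, QSC blue) and H3K27me3 broad peaks (ASC orange, QSC light blue) along the 3 clusters, in kb from the first base of each. H3K27me3 fills stretches between groups of histone genes on chromosome 13 and is nearly absent on chromosome 3 (0% of the span in ASC, 4.04% in QSC), and 23 of the 24 ASC H3K4me3 peaks of the distal cluster stand at histone genes, against 15 of 30 in the proximal cluster.

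The 11 genes called in neither state fell into a few neighbourhoods. H2bc23, H2ac23, H4c17, H4c18 and H2ac24 lie together in the proximal cluster. H4c17 and H4c18 share promoter runs with each other, and H2bc23 and H2ac23 with H2ac24. Of the 75-base runs in their promoters, 100% at H2bc23, 85.4% at H2ac23, 93.4% at H4c17 and H4c18 and 70.4% at H2ac24 occur in another promoter of the RefSeq table. H2ac19 on chromosome 3 shares 64.2% of its runs with H2ac18, which was called in both states. In all, 9 of the 57 genes with a promoter share such a run with another, and 6 of those 9 were called in neither state. H3c14 and H3c15, called in ASC only, share 69.5% of their runs with each other. Reads of 75 bp are as long as these runs, and the treatment of reads that fit several places is not stated in the labels or notes. The part of this in the missing calls was not tested.

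H2ac4, H3c2 and H4c2 in the distal cluster share no such run, yet were also called in neither state. At H2ac4 and H3c2 the broad lists had a peak of fold 2.37 in ASC and 1.93 in QSC, and at H4c2 one of 2.98 in ASC and 3.07 in QSC. In the interval around them, 5 peak numbers were absent from the ASC narrow list and 2 from the QSC list. H2bc1 and H2ac1, a head-to-head pair that encodes testis-specific histones in the mouse, had no H3K4me3 peak in any list of either state. Of the 11 genes, 5 had a broad-list peak in both states and 6 had no H3K4me3 peak at all.

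Histone genes outside the replication-dependent set had peaks of higher fold in both lists. The 11 replication-independent histone genes examined were all called in both states. Their median fold was 28.4 (14.3 to 41.2) in ASC and 16 in QSC, against 9.03 and 6.53 for the replication-dependent genes. The median log2 length ratio of the 11 genes was 0.56, against 1.25 for the replication-dependent genes. Without joining peaks the latter was 0.63, and the ratio of the 11 genes was not computed under that setting. The domain at H2az1, which encodes H2A.Z, measured 5928 bp in ASC and 2088 bp in QSC, whereas that at H1f0, the linker histone of non-dividing cells, measured 4411 bp and 4689 bp. At Cenpa, the centromeric H3 variant, it measured 2430 bp and 1058 bp. H3K27me3 was called at 3 of the 11 genes in ASC (H3f3b, H1f10 and Macroh2a2) and at 1 in QSC (Macroh2a2). Among the genes with an older histone symbol only, H2aw had a fold of 19.1 in ASC and 9.19 in QSC and H4f16 had 12.8 and 13.1, while H2bu2, H4bc24 and H1f6, the testis H1, had no narrow-peak call.

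Of 23 genes for factors that transcribe histone genes or process their pre-mRNAs, 22 were called for H3K4me3 in both states, and all 22 had the longer domain in ASC. Their median log2 length ratio was 0.67. The domain at Slbp, the stem-loop binding protein, measured 3720 bp in ASC and 1899 bp in QSC. At Npat it measured 3828 bp in ASC and 2431 bp in QSC, and at Casp8ap2 (FLASH, which acts with NPAT) 2976 bp and 1313 bp. Lsm10, a subunit of the U7 particle that cuts histone pre-mRNA, had 1583 bp and 642 bp. Among promoter-binding factors the largest ratio was that of the NF-Y subunit Nfyb, with 3212 bp in ASC and 1051 bp in QSC, and the smallest that of Pou2f1, with 4096 bp and 3388 bp. Nfyc, the NF-Y subunit that binds Nfyb, was called for H3K27me3 in both states and for H3K4me3 in neither. These calls read only the windows at the ends of its gene record, so a peak elsewhere in the gene would not be seen. In the interval around it, 2 peak numbers were absent from the QSC narrow list.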

How the data were processed

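Each mark in each state (ASC or QSC, from the sample titles) was assayed in 2 immunoprecipitated replicates with inputs by ChIPmentation with a TruePrep V2 kit, with paired reads of 75 bp from a NextSeq 500, per the labels' protocols. The submitters' processing notes name the build mm10 and, with no order or role, the programs MACS2 2.1.1, Bowtie2 2.3.2, Trimmomatic 0.36, bcl2fastq 2.19, SAMtools 1.3, Picard 2.9.2 and bedtools 2.26.0. Their settings, and the reason why peak numbers are absent, are not stated there. Every peak line, as deposited by the authors, has a fold enrichment (a linear ratio), a -log10 p-value, a -log10 q-value and, in narrow lists, a summit offset, which was not used. Both replicates of a group point to the same lists, so values are pooled, depth is unknown and no test or interval was computed.

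Gene records came from the RefSeq table for GRCm38.p6, which gives no strand, so windows of 1 kb were placed at both ends of each record. Strand and starts came from the RefSeq promoter table for 57 of the 62 genes. H3K4me3 was called on narrow peaks (overlap of at least 1 bp) and H3K27me3 on broad peaks (at least 500 bp of a window). Domains joined narrow peaks over gaps of up to 1 kb. Clusters were genes on a chromosome with gaps of at most 500 kb. All genes were processed together with Python 3.11.15, pandas 2.3.3 and numpy 2.4.6, and the overlap code was tested on simulated data. Figures used matplotlib 3.10.9.

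The members and gene lists were chosen with earlier results of these data known. Named genes were members whose call differed between states, that had no call or had H3K27me3, the extremes of fold and length change by class and cluster, list genes with the largest and smallest change, and other genes inside the cluster spans. Further members given as examples were picked with their values known. The alternatives tried were other thresholds, equal peak numbers or covered bases, other windows and overlaps, the other list, start-only windows and other joining rules. The set with older histone symbols was added after seeing the data.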

Additional observations from a re-analysis of the deposited data

How the results depend on the processing

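Each state has 1 pooled list, so leaving out a replicate could not be done, and depth, which sets how many weak peaks are called, is unknown. No paired analysis was possible because the peak lists pool the replicates. The settings below moved a value, by over 1.5 times for a count and by any amount for a median, unless stated otherwise. With equal covered bases the ASC count was 3, the ASC-only count 0 and the QSC-only count 40. With equal numbers of peaks 8 genes were called in ASC only, as reported, and 4 in QSC only, against 2.58% and 1.46% of all genes. The ASC-only count was 4 with windows of 2.5 kb and 0 with the broad lists. Within 1.5 times, it was 10 at a -log10 q threshold of 5 (3.86% of all genes) or with windows of 500 bp, and 9 with an overlap of 200 bp. For H3K27me3 the QSC count and the QSC-only count were both 0 at a -log10 q threshold of 5 or 1.3, a fold threshold of 3, windows of 500 bp, at least 1000 bp covered, the narrow list or the start only, and both 4 with at least 1 bp covered. Windows of 2.5 kb gave 2 genes in ASC, 10 in QSC, 1 in ASC only and 9 in QSC only, and adding the genes with an older symbol gave 1 in ASC. The median log2 length ratio was 0.63 without joining peaks, 1.53 with gaps of 3 kb, 0.87 at a -log10 q threshold of 5, 0.22 with equal covered bases, 0.87 with each ASC domain once, 0.52 with the broad lists and 1.26 with the start only. The median percentile of fold in ASC was 24.1 with the nearest peak, 29.1 by -log10 p and 27.5 with windows of 500 bp, and in QSC 23.6 with the nearest peak and 24.3 by -log10 p. The causes were not tested beyond what each setting removes by construction.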

Other observations

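The proximal histone cluster also holds a dense array of tRNA genes, the small RNA genes transcribed by RNA polymerase III, and these were examined after the peaks between the histone genes had been seen. Of 31 tRNA genes in the span, 18 (58.1%) had an H3K4me3 narrow peak within 500 bp in ASC and 5 (16.1%) in QSC. All 5 were among the 18, so 13 (41.9%) were called in ASC only and 0 in QSC only. Over all 408 annotated tRNA genes the shares were 56.4% in ASC and 43.4% in QSC, with 13.5% called in ASC only and 2 genes in QSC only. The 18 genes shared 12 peaks in ASC with folds from 5.24 to 26.7, and the 5 genes shared 3 peaks in QSC with folds from 4.60 to 10.4. The highest, at a methionine tRNA gene (n-TMcat8), had a fold of 26.7 in ASC and 10.4 in QSC, above every peak at a replication-dependent histone gene in ASC. At n-TRacg1 and n-TScga1, an arginine and a serine tRNA gene, the fold was 19.1 in ASC and 4.60 in QSC. The pair n-TRtct3 and n-TSaga5 had 14.8 in ASC and no narrow peak in QSC, as did n-TIaat11 and n-TTagt4 with 14.4. In the broad lists 24 of the 31 had a peak in ASC and 12 in QSC. No replicate check exists for these counts, and the effect of list length on them was not tested.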
